A study of Mus musculus with 20 samples.

Results

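The 10 genes described here encode chemokines: Ccl2, Ccl5, Ccl7, Ccl9 and Ccl20 of the CC class, Cxcl1, Cxcl5, Cxcl10 and Cxcl12 of the CXC class, and Cx3cl1. They were found by gene number and mouse symbol among 24458 genes in the files. Ccl2, Ccl7 and Ccl9 were selected on their higher CPM with CI994 in these same libraries, so their values in that contrast are a description and were not tested. The cells were Py2T, a mouse mammary tumour line from the MMTV-PyMT model, in which a viral promoter drives polyoma middle T antigen in the mammary epithelium, and mesenchymal cells made from it. There were 20 libraries in 10 groups of 2, and the extract protocol speaks of 2 independent experiments. Py2T LT cells had TGF-beta 1 at 2 ng/ml over more than 10 days. M1, M2 and M3 were stable mesenchymal lines of 1 clone each, and whether they were kept in TGF-beta is not given in the labels. The other 6 groups were all M3 cells that carried a control shRNA (shControl), an shRNA against Tet2 (shTet2) or an shRNA against Mbd3 (shMbd3), each without and with CI994, which inhibits histone deacetylases of class I, at 2 µM for 72 hours. The number of shRNAs per gene is not given in the labels. Tet2 oxidises 5-methylcytosine, and Mbd3 belongs to the repressor complex NuRD, which also holds the deacetylases Hdac1 and Hdac2.

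Chemokines are small proteins that attract leukocytes along a concentration gradient by binding receptors coupled to G proteins. Ccl2 and Ccl7 bind Ccr2 and draw monocytes, Ccl9 binds Ccr1 and draws myeloid cells, and Cxcl1 and Cxcl5 bind Cxcr2 and draw neutrophils. Cxcl10 is an interferon-induced ligand of Cxcr3 on T cells, Cxcl12 binds Cxcr4 and the scavenging receptor Ackr3, and Cx3cl1 is made as a membrane protein with a chemokine domain that the proteases Adam10 and Adam17 can release. In mammary tumours the Ccl2 axis is known for the recruitment of monocytes that become macrophages.

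Values for the 8 Py2T LT and clone libraries were in RPKM (reads scaled to gene length and to the library's reads), which summed to 340168 to 382930 per library, and their depth is unknown. Values for the 12 M3 shRNA libraries were in CPM (reads scaled to the library's reads only), from 16086082 to 24977595 reads. A CPM of 0 leaves room for a true level of 3 reads (0.120 to 0.186 CPM), a limit set by counting error alone. The library labelled M3 shControl replicate 1 stood apart. Its difference from replicate 2 fell by 1.77 on the log2 scale from the lowest to the highest decile of gene GC content, against -0.389 to 0.0137 in the other 5 CPM pairs, and Mbd3 was 5.40 CPM in it against 66.5 in replicate 2 and 22.1 and 27.7 in shMbd3. Many results of the chemokines that rest on it are given with and without it. The Tet2 level was 8.41 and 7.97 CPM with its shRNA against 15.1 and 13.8 in the controls. All 5 mesenchymal and all 4 epithelial markers reached 1 RPKM and 1 CPM in at least 1 library of each kind. Of 10 leukocyte markers Adgre1 and Ms4a1 were at 0 in all 20 libraries, and Ptprc, the pan-leukocyte marker, was at most 0.378 CPM. The 5 endothelial markers summed to 0.240 to 1.12 CPM, with Emcn at 0 throughout.

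Some of the members lie in clusters that arose by gene duplication. On chromosome 11 (GRCm38.p6) Ccl2 (gene 20296, chr11:82035577-82037452) is followed by Ccl7 (gene 20306, chr11:82045712-82047525) 8259 bases further on, and Ccl5 and Ccl9 (gene 20308, chr11:83572917-83578636) lie in a second group. On chromosome 5 Cxcl5 (gene 20311, chr5:90759298-90761625) and Cxcl1 (gene 14825, chr5:90891245-90893121) belong to one group, and Cxcl10 (gene 15945, chr5:92346638-92348889, overlapping Art3) lies apart. Ccl20 is on chromosome 1, Cxcl12 (gene 20315, chr6:117168535-117181368) on chromosome 6 and Cx3cl1 (gene 20312, chr8:94772180-94782427, overlapping the gene model Gm51543) on chromosome 8. Near-identical copies and overlapping genes can share reads, and the counting method is not given in the sources used here.

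Promoter sequences from RefSeq (GRCm38.p6) were matched for 6 of the 10 members, Ccl9, Ccl20, Cxcl1, Cxcl10, Cxcl12 and Cx3cl1. The 250 bases before the start are shown for 4 of them, because their levels differed: the means of Cxcl1 and Ccl9 were several-fold higher in every CI994 group than in the same line untreated, Cxcl10 was under 1 CPM in every M3 shRNA library, and the means of Cxcl12 were not higher with CI994. Capitals mark matches on either strand to the kappaB consensus bound by NF-kB, to the AP-1 letters TGANTCA or to the interferon-response (ISRE) letters TTTC, any 2 bases and TTTC again.
Cxcl1 (chr5:90890995-90891244, plus strand): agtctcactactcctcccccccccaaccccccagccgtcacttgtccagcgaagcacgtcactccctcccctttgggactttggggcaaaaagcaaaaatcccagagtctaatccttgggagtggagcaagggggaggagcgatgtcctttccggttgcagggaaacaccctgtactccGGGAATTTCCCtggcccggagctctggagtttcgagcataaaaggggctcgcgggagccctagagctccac
Ccl9 (chr11:83578637-83578886, minus strand): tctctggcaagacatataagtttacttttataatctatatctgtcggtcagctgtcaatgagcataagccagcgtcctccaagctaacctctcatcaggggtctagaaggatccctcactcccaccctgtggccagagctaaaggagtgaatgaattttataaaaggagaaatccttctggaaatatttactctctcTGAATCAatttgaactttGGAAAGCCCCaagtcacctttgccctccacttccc
Cxcl10 (chr5:92348890-92349139, minus strand): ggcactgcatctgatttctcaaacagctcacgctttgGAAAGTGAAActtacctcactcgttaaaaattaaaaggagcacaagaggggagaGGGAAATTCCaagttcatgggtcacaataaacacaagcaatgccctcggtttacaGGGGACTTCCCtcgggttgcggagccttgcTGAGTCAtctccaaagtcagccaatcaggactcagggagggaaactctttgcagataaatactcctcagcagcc
Cxcl12 (chr6:117168285-117168534, plus strand): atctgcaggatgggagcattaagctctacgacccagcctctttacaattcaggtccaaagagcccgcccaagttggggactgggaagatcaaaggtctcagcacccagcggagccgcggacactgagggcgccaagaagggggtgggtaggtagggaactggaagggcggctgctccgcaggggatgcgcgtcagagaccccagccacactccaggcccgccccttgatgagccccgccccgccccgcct

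The kappaB consensus was found in 7.25% of 32851 promoters of the same length, the AP-1 letters in 6.75% and the ISRE letters in 2.98%. Cxcl1 held 2 kappaB matches that overlap in 1 run, Ccl9 held 1 kappaB and 1 AP-1 match, and Ccl20 held 1 kappaB match. Cxcl10 held 3 kappaB matches, of which 2 overlap, with 1 AP-1 and 1 ISRE match. The windows of Cxcl12 and Cx3cl1 held none of these letters, and each had 14 CG pairs against a median of 6 over all promoters. Cxcl1 had 10 CG pairs, Cxcl10 had 5, and Ccl9 and Ccl20 had 2 each. A match is a description of the letters and not evidence of binding.

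In RPKM, which sets genes of different length on one scale, Cxcl12 was the most abundant member in Py2T LT and Cx3cl1 in each clone. Py2T LT had 40.9 ± 0.76 RPKM of Cxcl12 (SD, n = 2 here and below), 6.16 ± 0.59 of Cx3cl1, 3.05 ± 0.59 of Cxcl1 and 2.99 ± 0.23 of Ccl9. The last 2 did not differ beyond their spread. M3, the clone used for the knockdowns, had 100.2 ± 2.6 RPKM of Cx3cl1, 55.4 ± 12 of Cxcl12, 27.9 ± 12.5 of Ccl2 and 6.75 ± 2.4 of Cxcl5. Ccl7 (3.22 ± 1.5) and Cxcl1 (3.16 ± 2.4) came next with overlapping values, and Ccl9 was at 0.349 ± 0.0029. Ccl5, a T-cell and monocyte attractant, was at 0.548 and 3.16 RPKM in the Py2T LT pair and no higher than 0.798 in a clone library. Ccl20, the ligand of Ccr6, was at most 0.0725 RPKM and Cxcl10 at most 0.610. These 3 genes did not reach 1 RPKM in 2 libraries, so 7 of the 10 members were tested among 11717 genes.

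**Figure D1:**
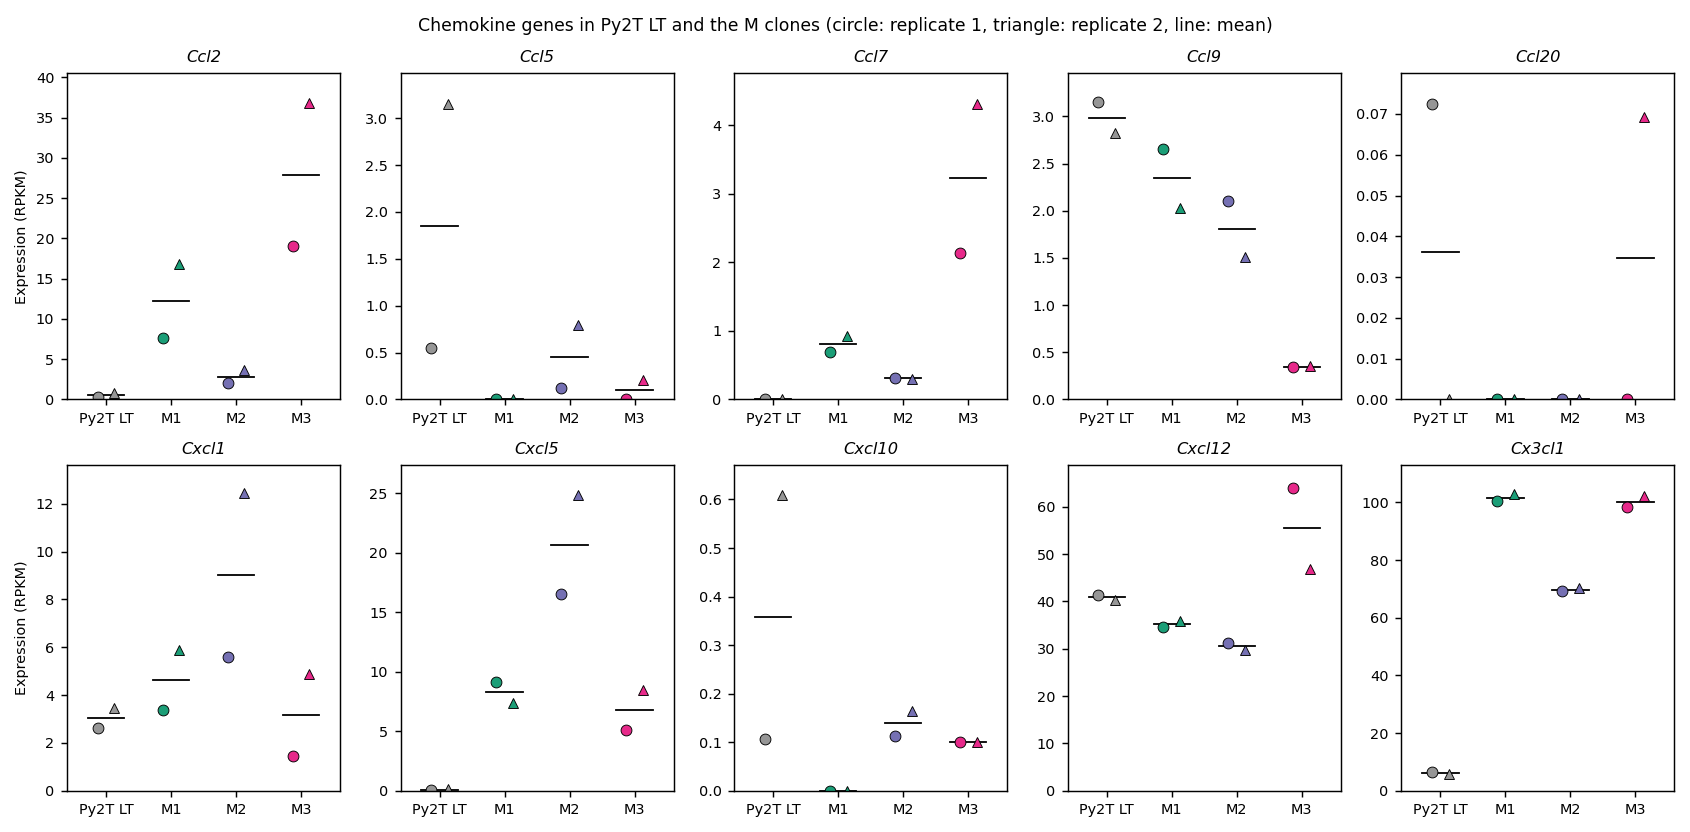
RPKM of the 10 chemokine genes in each library of Py2T LT and the clones M1, M2 and M3, with 1 panel and 1 linear axis from 0 per gene; circles are replicate 1, triangles replicate 2 and lines the mean of both. Cx3cl1, Cxcl5 and Ccl2 lie higher in all 6 clone libraries than in both Py2T LT libraries, and Ccl9 lies lowest in M3.

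The clones were set against Py2T LT to ask how stable mesenchymal lines differ from cells held in TGF-beta. Both monocyte attractants were higher in the clones. Ccl2 was 0.361 and 0.763 RPKM in Py2T LT, 7.68 and 16.8 in M1, 2.02 and 3.61 in M2, and 19.0 and 36.8 in M3. No clone library overlapped Py2T LT, and replicate 2 was the higher one in every group. In such bulk samples fewer cells of a kind and less RNA per cell cannot be told apart. The log2 difference, on values plus 0.5, was 3.48 ± 0.51 (SE) in M1 (limma, Benjamini-Hochberg adjusted p = 0.00199), 1.61 ± 0.51 in M2 (adjusted p = 0.0403) and 4.68 ± 0.51 in M3 (adjusted p = 0.000584). Ccl7 was listed at 0 in both Py2T LT libraries, and measured 0.697 and 0.926 RPKM in M1, 0.313 and 0.303 in M2, and 2.13 and 4.31 in M3. It reached the filter of 1 RPKM in 2 libraries through M3 alone, so its differences from M3 (2.83 ± 0.25 on the log2 scale against Py2T LT) are a description, with no test. Ccl9 went the other way. It measured 3.15 and 2.82 RPKM in Py2T LT, 2.65 and 2.03 in M1, 2.10 and 1.51 in M2, and 0.347 and 0.351 in M3. The difference did not pass in M1 (-0.35 ± 0.17, adjusted p = 0.107) and passed in M2 (-0.64 ± 0.17, adjusted p = 0.0115) and M3 (-2.06 ± 0.17, adjusted p = 1.35e-05).

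The neutrophil attractant Cxcl5 was close to 0 in Py2T LT and clearly present in all clones. Its values were 0.0351 and 0.135 RPKM in Py2T LT, 9.15 and 7.39 in M1, 16.5 and 24.9 in M2, and 5.08 and 8.43 in M3. The groups were far apart, with log2 differences of 3.88, 5.15 and 3.59 (SE 0.26 each; adjusted p = 5.25e-06, 9.03e-07 and 7.67e-06). Its paralog Cxcl1, at 2.64 and 3.47 RPKM in Py2T LT, did not pass in any clone. Cxcl1 measured 3.39 and 5.88 RPKM in M1, 5.61 and 12.4 in M2, and 1.45 and 4.86 in M3. Only the M2 libraries lay above both Py2T LT libraries, and their log2 difference was 1.30 ± 0.61 (adjusted p = 0.126).

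Cx3cl1 had the tightest replicates of the members higher in the clones. It measured 6.57 and 5.74 RPKM in Py2T LT, 100.5 and 103 in M1, 69.3 and 70.2 in M2, and 98.4 and 102 in M3, so that the means were 16.5, 11.3 and 16.3 times that of Py2T LT (log2 3.89, 3.37 and 3.89, SE 0.094; adjusted p = 1.08e-08, 2.49e-08 and 1.09e-08). Cxcl12 differed little. It was 41.4 and 40.3 RPKM in Py2T LT, 34.7 and 35.8 in M1, 31.3 and 29.7 in M2, and 63.9 and 46.9 in M3. It was lower in M2 (-0.45 ± 0.14, adjusted p = 0.0220) and higher in M3 (0.39 ± 0.14, adjusted p = 0.0392), and in M1 the difference did not pass (-0.27 ± 0.14, adjusted p = 0.129).

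Among the 7 tested members 4 were higher and 0 lower in M1 (of all tested genes 61.2% passed, 30.0% higher and 31.2% lower), 4 higher and 2 lower in M2 (57.5% passed, 27.6% higher and 29.9% lower) and 5 higher and 1 lower in M3 (59.6% passed, 28.8% higher and 30.7% lower). With Ccl7 set aside in M3, 4 of 6 were higher and 1 lower there. The counts in M1 and M2 include Ccl7, which was under 1 RPKM in every library compared there. Its difference ran from 0.84 to 3.16 in M1 and from 0.39 to 2.03 in M2 over the alternative fits. The members' median log2 difference was 1.37 in M1, 1.30 in M2 and 2.83 in M3, against -0.02, -0.01 and -0.02 over all tested genes. The medians in M1 and M3 are the values of Ccl7 itself. As Ccl7 passed the filter through M3 alone, the M3 median is a description. The 3 comparisons share both Py2T LT libraries. Summed mesenchymal markers were 2889 to 2998 RPKM in Py2T LT, 1005 to 1238 in M1, 1358 to 1403 in M2 and 1513 to 1537 in M3, and summed epithelial markers 1143 to 1177, 1322 to 1932, 1459 to 1617 and 1299 to 1323. Summed leukocyte markers (9 of 10 measured) were 2.56 to 2.66, 1.94 to 3.18, 1.62 to 1.78 and 1.24 to 2.52, and endothelial markers 0.965 to 1.44, with no clone library above 0.198. The part of these markers in the chemokine values was not tested. The M2 calls were the least stable. Without 1 of the Py2T LT or M2 libraries 2 or 3 members passed in M2: Ccl2 was then at 1.25 to 1.96, Ccl7 at 0.68 to 0.70 and Cxcl12 at -0.49 to -0.41, and none of these passed in any of the 4 cases, while Ccl9 was lost without Py2T LT replicate 1 (-0.57) and without M2 replicate 2 (-0.45). The Ccl7 call in M2 was also lost with the GC trend removed (0.65, adjusted p = 0.0784). The Cxcl12 call in M3 was lost without M3 replicate 1 (0.18), either Py2T LT library (0.40 and 0.39) or either M2 library (0.40 for both).

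The clones also differed from each other in these genes. M3 had more Ccl2 than M2 (3.07 ± 0.51 on the log2 scale, adjusted p = 0.0124), a call lost without M2 replicate 1 (2.73) or M2 replicate 2 (3.43). Ccl7, which passed the filter through M3 alone, was 1.46 ± 0.25 above M1 and 2.14 ± 0.25 above M2 in M3, values given without a test. M3 had less Ccl9 than both (-1.72 and -1.43, SE 0.17; adjusted p = 0.00109 and 0.000844) and more Cxcl12 than both (0.65 and 0.84, SE 0.14; adjusted p = 0.0367 and 0.00438). M2 had the most Cxcl5, above M1 by 1.27 ± 0.26 (adjusted p = 0.0113) and above M3 (-1.56 ± 0.26 for M3 less M2, adjusted p = 0.00496), and the least Cx3cl1 of the clones (-0.52 against M1 and 0.52 for M3 against M2, SE 0.094; adjusted p = 0.00633 and 0.00641). In M3 against M1, where 5.03% of all tested genes passed (3.00% higher and 2.02% lower), 2 of the 7 members were higher and 1 was lower. In M2 against M1 they were 1 and 1 (22.9% of genes passed, 10.7% higher and 12.2% lower), and in M3 against M2 they were 4 and 2 (20.2% passed, 10.2% higher and 10.0% lower). With Ccl7 set aside the counts of M3 were 1 higher and 1 lower of 6 against M1, and 3 and 2 of 6 against M2. The M3 against M1 count was 1 without M1 replicate 1, where Ccl7 (1.33) and Cxcl12 (0.63) did not pass, and 1 without M3 replicate 1, where Cxcl12 (0.43) did not pass and Ccl7, under the filter, was not tested. The M2 against M1 count was 1 without M2 replicate 1 and 0 without M2 replicate 2. The call for Cxcl12 between M3 and M1 was also lost without either Py2T LT library or either M2 library (0.65 to 0.67), the Cxcl5 call between M2 and M1 without M2 replicate 2 (0.99), and both Cx3cl1 calls of M2 without either M2 library (-0.51 and -0.53 against M1, 0.53 and 0.54 for M3 against M2).

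Knockdown of Tet2 or Mbd3 in M3 was set against shControl to ask what these proteins maintain in the mesenchymal state. Ccl2 and Ccl7 were lower with both knockdowns. They were picked on their CI994 rise, a contrast that holds these untreated libraries. Their p-values here are therefore not independent of that choice. Both libraries labelled shControl were high in Ccl2, at 19.3 and 13.3 CPM, against 1.98 and 1.10 with the Tet2 shRNA and 2.75 and 2.77 with the Mbd3 shRNA. All 4 knockdown libraries lay below both controls, and the means were 10.6 and 5.91 times lower. The log2 change was -3.04 ± 0.28 (SE) in shTet2 (adjusted p = 0.000118) and -2.40 ± 0.28 in shMbd3 (adjusted p = 0.000420), and without the library labelled M3 shControl replicate 1 it was -2.72 and -2.08. Ccl7 was 2.47 and 1.63 CPM in shControl (54 and 34 reads), 0.189 and 0.149 in shTet2 (4 and 3 reads), and 0.417 and 0.312 in shMbd3 (10 and 7 reads). Its fitted changes were -1.92 ± 0.31 (adjusted p = 0.00229) and -1.58 ± 0.31 (adjusted p = 0.00569), and -1.63 and -1.29 without that library. At so few reads the pseudocount shrinks these values: edgeR's quasi-likelihood test on the reads gave -3.54 and -2.54 (adjusted p = 0.00225 and 0.00454). The limma call in shMbd3 was lost when only the compared groups were fitted (adjusted p = 0.0632).

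**Figure D2:**
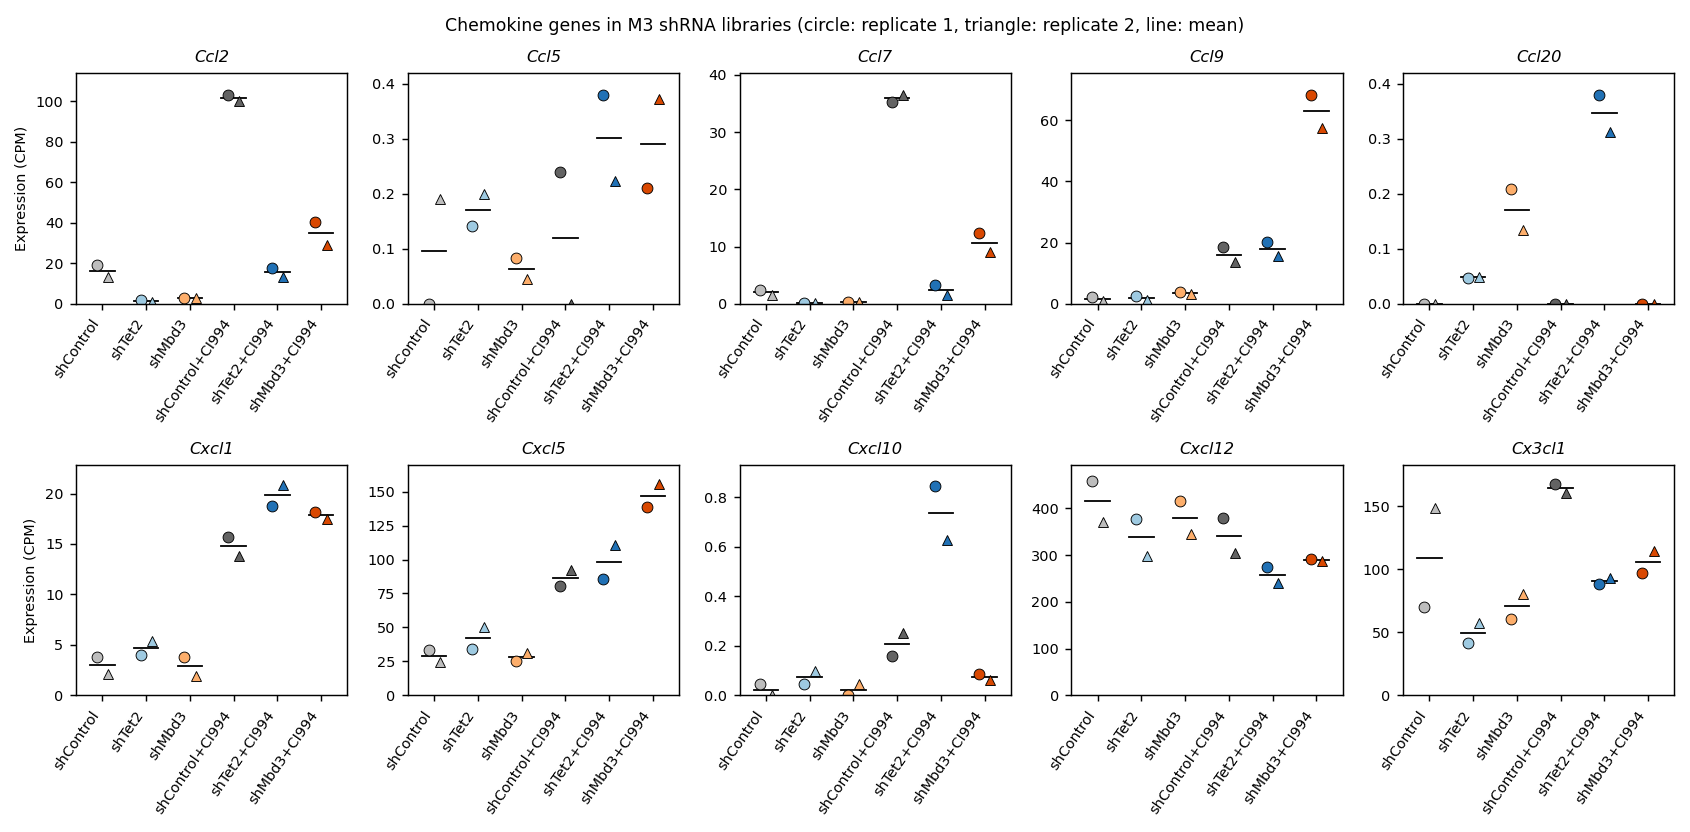
CPM of the 10 chemokine genes in each of the 12 M3 shRNA libraries, with 1 panel and 1 linear axis from 0 per gene; circles are replicate 1, triangles replicate 2 and lines the mean of both, with CI994 groups in darker colours. Ccl2 and Ccl7 are lower in both knockdowns without and with CI994, Ccl9 is highest in shMbd3 with CI994, and Ccl5, Ccl20 and Cxcl10 stay under 1 CPM in every library.

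Cx3cl1 also fell with Tet2 knockdown. It was 70.0 CPM in the library labelled M3 shControl replicate 1 and 149 in replicate 2, 41.4 and 57.6 in shTet2, and 60.8 and 80.2 in shMbd3. The shTet2 libraries lay below both controls (-1.02 ± 0.28, adjusted p = 0.0289), whereas the shMbd3 libraries overlapped them (-0.60 ± 0.28, adjusted p = 0.123). Both passed without M3 shControl replicate 1, at -1.50 (adjusted p = 0.000119) and -1.08 (adjusted p = 0.00108), and with the GC trend removed, at -1.42 and -1.13. The shTet2 call was lost without shTet2 replicate 1 (-0.79), shTet2 replicate 2 (-1.26) or shControl CI994 replicate 2 (-1.01), a library outside the comparison that enters the shared estimate of the spread. It was also lost when only the compared groups were fitted (-1.01, adjusted p = 0.286).

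Ccl9 did not follow Ccl2 and Ccl7. It was 2.38 and 0.815 CPM in shControl, 2.50 and 1.15 with Tet2 knockdown and 3.84 and 3.21 with Mbd3 knockdown. The shTet2 values overlapped the controls (0.21 ± 0.41, adjusted p = 0.724), and the shMbd3 values lay above them without passing (0.99 ± 0.41, adjusted p = 0.0884). Without M3 shControl replicate 1 the change in shMbd3 was 1.61 and passed (adjusted p = 0.00348). Cxcl5 was 33.5 and 24.2 CPM in shControl, 33.9 and 50.5 with Tet2 knockdown and 25.0 and 31.0 with Mbd3 knockdown, where the shTet2 libraries lay above both controls and the shMbd3 libraries overlapped them, with changes of 0.56 ± 0.24 (adjusted p = 0.116) and -0.09 ± 0.24 (adjusted p = 0.781). Cxcl1 was 3.75 and 2.16 CPM in shControl, 4.01 and 5.43 with Tet2 knockdown and 3.84 and 1.87 with Mbd3 knockdown (0.65 ± 0.32 and -0.12 ± 0.32; adjusted p = 0.171 and 0.792). Without that library both passed in shTet2, Cxcl5 at 0.85 (adjusted p = 0.0106) and Cxcl1 at 1.04 (adjusted p = 0.0207). Cxcl12 was 459.5 and 371 CPM in shControl, 378 and 299 with Tet2 knockdown and 416 and 346 with Mbd3 knockdown, and did not pass (-0.27 ± 0.19 and -0.18 ± 0.19; adjusted p = 0.331 and 0.479). Its changes were -0.050 in shTet2 and 0.035 in shMbd3 without M3 shControl replicate 1.

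With 8 members tested among 12808 genes (Ccl5 and Ccl20 were under the filter of 0.5 CPM in 2 libraries), 0 were higher and 3 lower in shTet2, where 23.2% of all tested genes passed, 10.5% higher and 12.8% lower. In shMbd3 0 were higher and 2 lower, where 32.1% passed, 15.6% higher and 16.6% lower. Ccl2 and Ccl7 made up both shMbd3 calls and, with Cx3cl1, the 3 in shTet2. Apart from the picked Ccl2, Ccl7 and Ccl9, only Cx3cl1 passed, in shTet2. The median log2 change of the members was -0.06 and -0.15, against 0.02 and 0.01 over all tested genes. Without the library labelled M3 shControl replicate 1 the counts were 2 higher and 3 lower in shTet2 (32.8% of genes passed) and 1 higher and 3 lower in shMbd3 (34.3% passed). The comparisons share the shControl libraries. Summed epithelial markers (4 of 4 measured) were 958 and 2462 CPM in shControl, 3309 to 3753 with Tet2 knockdown and 2360 to 2425 with Mbd3 knockdown, and summed mesenchymal markers (5 of 5) were 4158 to 5953, 2929 to 3044 and 2755 to 3055. Their part in the chemokine values was not tested.

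**Figure D3:**
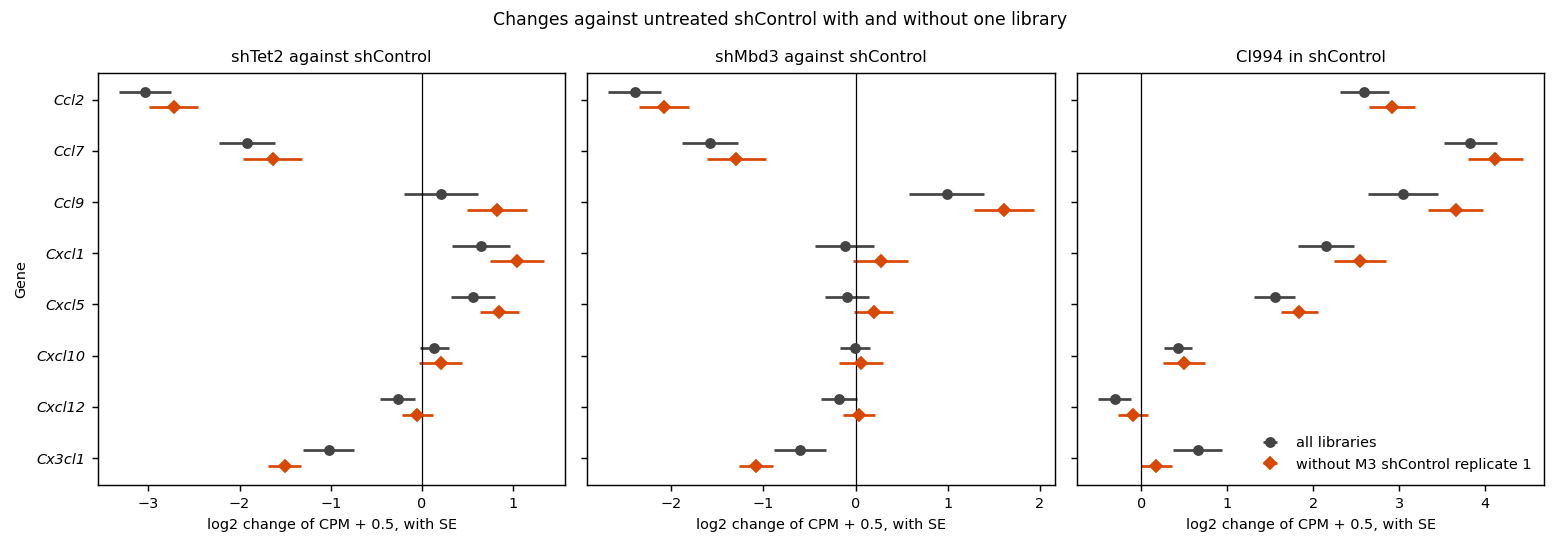
Log2 change (CPM plus 0.5, with SE) of the 8 tested chemokine genes in 3 comparisons with untreated shControl, from all 12 libraries (grey circles) and without the library labelled M3 shControl replicate 1 (orange diamonds). Leaving it out moves Ccl2, Ccl7, Ccl9, Cxcl1, Cxcl5, Cxcl10 and Cxcl12 upward and Cx3cl1 downward in all 3 panels.

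CI994 was added to ask how deacetylase inhibition acts in the 3 shRNA lines. Ccl2, picked for this contrast, went from 19.3 and 13.3 CPM to 103 and 100.04 in shControl, from 1.98 and 1.10 to 17.7 and 13.5 in shTet2, and from 2.75 and 2.77 to 40.7 and 29.3 in shMbd3. The means were 6.23, 10.1 and 12.7 times higher. The treated shTet2 libraries were thus at the level of untreated shControl. Ccl7 went from 2.47 and 1.63 CPM to 35.2 and 36.6 in shControl, from 0.189 and 0.149 to 3.25 and 1.52 in shTet2, and from 0.417 and 0.312 to 12.3 and 9.08 in shMbd3. Its mean was 17.5 times higher in shControl and 29.3 times higher in shMbd3. In shTet2 it rested on 7 reads before treatment, and the log2 change was 1.47 to 3.07 with pseudocounts of 1 to 0.1 and 3.71 with edgeR. In shControl the log2 changes were 2.59 for Ccl2 and 3.83 for Ccl7, and 2.91 and 4.12 without M3 shControl replicate 1.

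Ccl9 went from 2.38 and 0.815 CPM to 18.5 and 13.6 in shControl, from 2.50 and 1.15 to 20.1 and 15.6 in shTet2, and from 3.84 and 3.21 to 68.4 and 57.5 in shMbd3. The treated shMbd3 libraries stood above all others. The means were 10.0, 9.77 and 17.8 times higher, on the log2 scale 3.04, 2.97 and 3.96 (SE 0.41), and without M3 shControl replicate 1 the shControl value was 3.65. These 3 genes, selected for this, had no overlap between treated and untreated libraries of a line, and are not counted among the tested members below.

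The neutrophil attractants, which are not among the 3 genes picked for this rise, rose with CI994 in all 3 lines. They too were chosen as members with earlier results of these data known. Cxcl1 went from 3.75 and 2.16 CPM to 15.7 and 13.8 in shControl, from 4.01 and 5.43 to 18.8 and 20.8 in shTet2, and from 3.84 and 1.87 to 18.2 and 17.5 in shMbd3. The treated libraries did not overlap the untreated ones, and the log2 changes were 2.15, 1.90 and 2.50 (SE 0.32; adjusted p = 0.00228, 0.00383 and 0.00186). Cxcl5 went from 33.5 and 24.2 CPM to 80.4 and 92.2 in shControl, from 33.9 and 50.5 to 85.8 and 111 in shTet2, and from 25.0 and 31.0 to 138 and 155 in shMbd3. Its changes were 1.55, 1.15 and 2.37 (SE 0.24; adjusted p = 0.00250, 0.00932 and 0.000637). The shTet2 call of Cxcl5 was lost without shTet2 replicate 1 (0.88) and without shTet2 CI994 replicate 2 (0.98), and the shControl calls of Cxcl1 (2.13) and Cxcl5 (1.53) were lost when only the compared groups were fitted. Without M3 shControl replicate 1 the shControl changes were 2.54 for Cxcl1 and 1.84 for Cxcl5.

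Cx3cl1 and Cxcl12 did not pass in any line with all libraries in the limma fit without a replicate term. With a replicate block more members were called for CI994 in shControl and shTet2, as given below. Cx3cl1 measured 168 and 161 CPM in treated shControl, 88.5 and 93.2 in treated shTet2, and 97.1 and 114 in treated shMbd3, above both untreated libraries of each line. The changes were 0.65, 0.81 and 0.58 (SE 0.28; adjusted p = 0.0925, 0.0629 and 0.218). Without M3 shControl replicate 1 the change in shControl was 0.17 (adjusted p = 0.506), and those in shTet2 (adjusted p = 0.000868) and shMbd3 (adjusted p = 0.010) passed at the same size, with an SE of 0.15 in place of 0.28. With all libraries and the GC trend removed the Cx3cl1 changes were 0.015 in shControl, 0.40 in shTet2 and 0.33 in shMbd3. Of these the shTet2 change alone passed (limma adjusted p = 0.0287). Cxcl12 measured 379 and 305 CPM in treated shControl, 276 and 240.2 in treated shTet2, and 292 and 287 in treated shMbd3. Its changes were -0.31, -0.46 and -0.40 (SE 0.19; adjusted p = 0.208, 0.110 and 0.215), and without that library the latter 2 passed (adjusted p = 0.0171 and 0.0429). Cxcl12 did not overlap between treated and untreated libraries in shTet2 and shMbd3 and overlapped in shControl. Its shControl change was -0.097 without M3 shControl replicate 1.

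Cxcl10 stayed low. It was 0.845 and 0.626 CPM in shTet2 with CI994 (20 and 14 reads) and at most 0.251 in any other library, and only the former group took it past the filter, so its change there (1.09 ± 0.16) is a description, with no test. Its changes in shControl (0.43 ± 0.16, adjusted p = 0.0636) and shMbd3 (0.13 ± 0.16, adjusted p = 0.636) did not pass. The shControl change of Cxcl10 was 0.50 without M3 shControl replicate 1. Ccl20 was at 0.380 and 0.313 CPM in treated shTet2 (9 and 7 reads), at 0.209 and 0.134 in untreated shMbd3 and at 0 in all 4 shControl libraries and in treated shMbd3. Ccl5 was at most 0.380 CPM in all 12 libraries.

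Of the 5 members tested with CI994 (Cxcl1, Cxcl5, Cxcl10, Cxcl12 and Cx3cl1), 2 rose and 0 fell in shControl, where 33.5% of all tested genes passed, 18.0% higher and 15.5% lower. In shTet2 2 of 4 rose and 0 fell with Cxcl10 set aside, and with it 3 of 5 (24.2% passed, 12.4% higher and 11.8% lower), and in shMbd3 2 of 5 rose and 0 fell (12.6% passed, 7.43% higher and 5.13% lower). The 3 comparisons are within lines and share no library. Without M3 shControl replicate 1 the counts were 2 and 0 (29.7% passed), 4 and 1 (57.7%; 3 and 1 with Cxcl10 set aside) and 3 and 1 (42.0%). Marker sums moved with treatment. The mesenchymal sum went from 4158 to 5953 CPM up to 8239.98 to 8669 in shControl, from 2929 to 3044 up to 7783 to 8909.9 in shTet2, and from 2755 to 3055 up to 4138 to 4545 in shMbd3. The epithelial sum went from 958 to 2462 up to 3518 to 3521 in shControl, from 3309 to 3753 up to 4126 to 4138 in shTet2, and from 2360 to 2425 up to 2865 to 2905 in shMbd3. The sum over the 10 leukocyte markers was 1.88 to 2.83 CPM in shControl and 10.4 to 10.6 with CI994, 3.04 to 3.87 and 19.2 to 20.8 in shTet2, and 1.75 to 2.54 and 12.5 to 13.8 in shMbd3. Only Cd68, a lysosomal protein also found outside leukocytes (0.918 to 16.6 CPM), Lyz2 (0.0958 to 4.75) and Csf1r (0.0447 to 1.93) reached 1 CPM in any library, and 7 of the 10 did not. Ptprc was at most 0.378 CPM and Itgam at most 0.125. The part of these markers in the chemokine values was not tested.

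**Figure D4:**
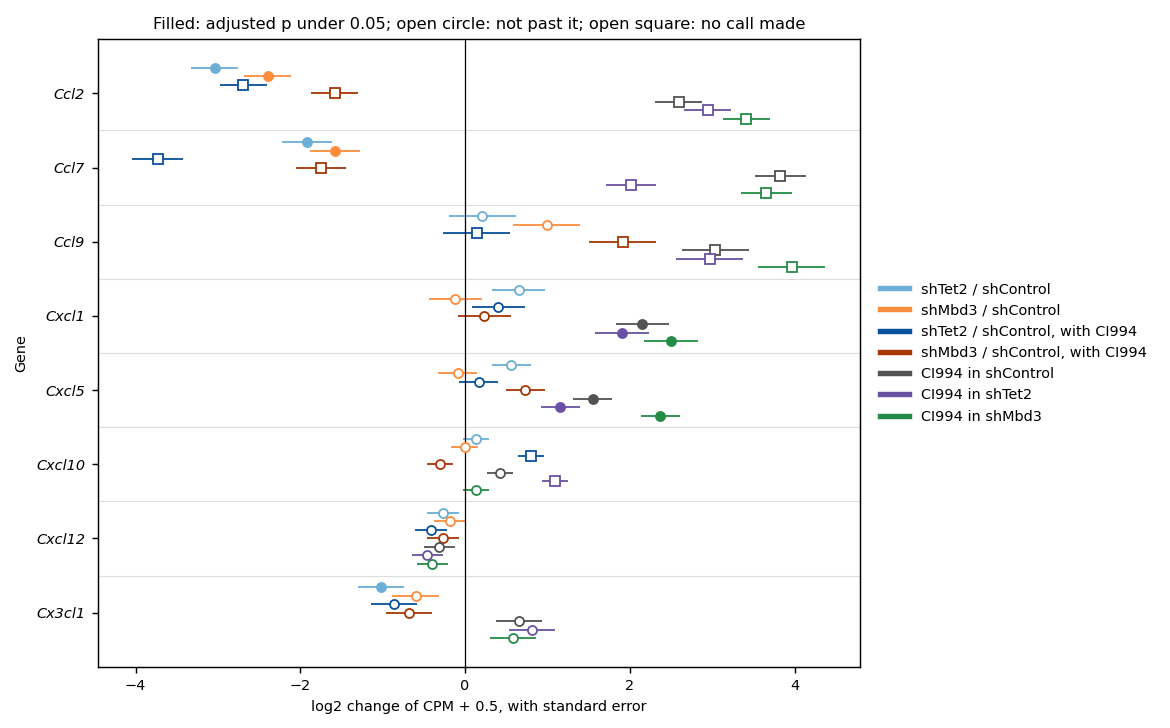
Log2 change (CPM plus 0.5) with its standard error for the 8 tested chemokine genes in 7 comparisons of the M3 shRNA groups; filled circles passed at an adjusted p under 0.05, open circles did not, and open squares carry no call because the gene was picked on those treated libraries or passed the filter through them. Legend lines give the comparison. Ccl2 and Ccl7 lie left of 0 in all 4 knockdown comparisons, and Cxcl1 and Cxcl5 lie right of 0 in all 3 CI994 comparisons.

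With CI994 the levels of the monocyte attractants were lower in both knockdowns than in shControl. Ccl2, Ccl7 and Ccl9 had been picked on these treated libraries, so their values here are a description, with no test. Ccl2 was 103 and 100.04 CPM in shControl, 17.7 and 13.5 with Tet2 knockdown and 40.7 and 29.3 with Mbd3 knockdown, a difference of -2.69 ± 0.28 and -1.58 ± 0.28 on the log2 scale, without overlap. Ccl7, at 35.2 and 36.6 CPM in shControl against 3.25 and 1.52 and 12.3 and 9.08 in the knockdowns, differed by -3.73 ± 0.31 and -1.75 ± 0.31. Ccl9 lay higher in shMbd3, at 68.4 and 57.5 CPM against 18.5 and 13.6 in shControl (1.92 ± 0.41), and overlapped shControl in shTet2 at 20.1 and 15.6 (0.14 ± 0.41).

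Cxcl5 was 138 and 155 CPM in treated shMbd3 against 80.4 and 92.2 in treated shControl, apart from it but not past the threshold (0.73 ± 0.24, adjusted p = 0.0625), and it passed without M3 shControl replicate 1 (adjusted p = 0.00596). Cx3cl1 was lower in both treated knockdowns without overlap, at -0.86 ± 0.28 in shTet2 (adjusted p = 0.0697) and -0.68 ± 0.28 in shMbd3 (adjusted p = 0.132). Both passed without that library (adjusted p = 0.000961 and 0.00374), as did Cxcl12 in shTet2 (-0.41, adjusted p = 0.0382). Cxcl1 did not pass in either knockdown (0.40 and 0.23, SE 0.32; adjusted p = 0.471 and 0.681). The Cxcl10 difference in shTet2, 0.80 ± 0.16, is given without a test, since treated shTet2 alone took the gene past the filter. Over the 4 members neither picked nor admitted this way (Cxcl1, Cxcl5, Cxcl12 and Cx3cl1) 0 passed in shTet2 by limma and 0 by edgeR, 1 was lower by DESeq2, and 1 was lower at an unadjusted p under 0.05. In shMbd3, over these and Cxcl10, 0 passed by limma and 0 by edgeR, 1 was higher by DESeq2, and 1 was higher and 1 lower at an unadjusted p under 0.05. Without M3 shControl replicate 1 limma gave 0 higher and 2 lower of 4 in shTet2, and 1 and 1 of 5 in shMbd3. Over all 8 tested members, a count made up of the picked genes and Cxcl10, 1 was higher and 2 were lower in shTet2 with CI994 (15.8% of all genes passed, 6.56% higher and 9.23% lower), and 1 higher and 2 lower in shMbd3 with CI994 (18.9% passed, 7.98% higher and 10.9% lower). Without M3 shControl replicate 1 they were 1 and 4 (40.7% passed) and 2 and 3 (44.0% passed).

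Whether CI994 acted differently in a knockdown line was tested by an interaction, the knockdown's change with CI994 less that without it. By limma 0 of the 5 tested members passed for shTet2, where 0.687% of all genes did (0.414% higher and 0.273% lower), and 0 of 5 for shMbd3, where 0.0390% did (0.0234% higher and 0.0156% lower). At an unadjusted p under 0.05 limma gave 1 member in each, Cxcl10 for shTet2 and Cxcl5 for shMbd3. Cxcl10 passed the filter through treated shTet2 alone, so it is a description here. By adjusted p edgeR and DESeq2 gave 0 in both. At an unadjusted p under 0.05 both tools gave 0 for shTet2 and 1, Cxcl5, for shMbd3. The larger values were 0.66 ± 0.22 for Cxcl10 and shTet2, with the limit on that gene given above, and 0.82 ± 0.34 for Cxcl5 and shMbd3 (adjusted p = 0.370). The Cxcl5 value was 1.11 and passed without M3 shControl replicate 2 (adjusted p = 0.00633), when the library that stood apart was the only untreated control, and was 0.53 without replicate 1 (adjusted p = 0.358).

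Genes beside the members, named here for their position, did not share one level. In the group of 6 on chromosome 11, Ccl2 and Ccl7 reached 103 and 36.6 CPM in their highest library, whereas Ccl11, Ccl12, Ccl8 and Ccl1 beside them reached 0.240, 0.0801, 0.801 and 0.0503. Ccl8 was highest in treated shControl, at 0.801 and 0.604 CPM. Beside Ccl9, Ccl6, another rodent ligand of Ccr1, was 0.412 and 0.287 CPM in shControl, 1.42 and 1.15 with Tet2 knockdown and 1.09 and 1.29 with Mbd3 knockdown. With CI994 it was 2.04 and 1.71, 5.37 and 4.65, and 4.84 and 3.54. Ccl6 rose with CI994 in all 3 lines (1.47, 1.57 and 1.45, SE 0.20; adjusted p = 0.00149, 0.00100 and 0.00267) and with both knockdowns (1.10 and 0.96, SE 0.20; adjusted p = 0.00460 and 0.00790). On chromosome 5, between Cxcl5 and Cxcl1, the neutrophil attractants Ppbp and Cxcl3 were detected, and Pf4 and Cxcl15 were at most 0.0622 CPM. Cxcl3 was 2.43 and 1.58 CPM in shControl, 6.09 and 6.47 with Tet2 knockdown and 2.30 and 2.05 with Mbd3 knockdown, and with CI994 6.01 and 7.75, 6.30 and 7.11, and 10.6 and 11.2. It rose with Tet2 knockdown (1.49 ± 0.21, adjusted p = 0.00118) and with CI994 in shControl and shMbd3 (1.54 and 2.08; adjusted p = 0.00146 and 0.000643), but its change with CI994 in shTet2 was 0.02 ± 0.21 (adjusted p = 0.960), and the interaction did not pass (-1.52 ± 0.30, adjusted p = 0.060). It passed without M3 shControl replicate 1 (-1.82, adjusted p = 0.00434). Without that library Ccl6 was at 1.23 in shTet2, 1.09 in shMbd3 and 1.60 with CI994 in shControl, and Cxcl3 at 1.78 in shTet2 and 1.84 with CI994 in shControl, and all of these passed.

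**Figure D5:**
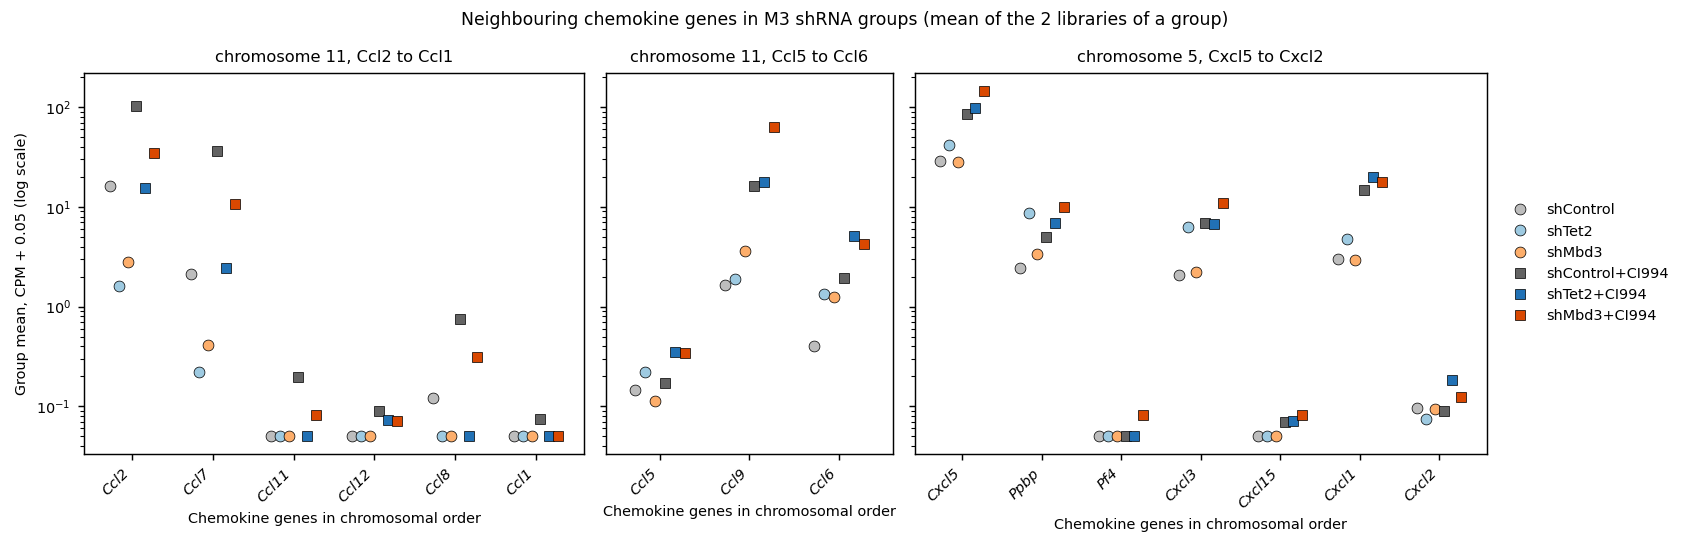
Mean CPM (plus 0.05, log axis) in the 6 M3 shRNA groups of chemokine genes in their order along chromosomes 11 and 5; circles are untreated groups and squares CI994 groups. In each of the 3 groups of genes, detected members stand beside genes at or near 0.

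Of 28 other chemokine genes, 21 were under 1 CPM in every M3 shRNA library and 17 of the 21 listed in the RPKM files were under 1 RPKM in every library. Ccl8 reached the filter of 0.5 CPM in treated shControl alone (0.801 and 0.604 CPM). Its part in the CI994 count of shControl below is therefore a description, with no test. Among the 9 tested in CPM, 4 rose and 0 fell in shTet2, 2 and 0 in shMbd3, and with CI994 5 rose and 0 fell in shControl, 3 and 0 in the shTet2 line and 5 and 0 in the shMbd3 line. Of all tested genes 23.2%, 32.1%, 33.5%, 24.2% and 12.6% passed in these comparisons. Without the library labelled M3 shControl replicate 1 these counts were 4 and 1, 2 and 0, 5 and 0, 3 and 1, and 5 and 0. Cxcl16, a membrane chemokine like Cx3cl1 and a ligand of Cxcr6, was 4.21 and 5.65 CPM in shControl, 23.5 and 22.0 with Tet2 knockdown and 50.1 and 45.3 with Mbd3 knockdown, a rise of 2.14 ± 0.19 (adjusted p = 7.68e-05) and 3.11 ± 0.19 (adjusted p = 1.04e-05), or 2.00 and 2.97 without that library. Its direction was thus opposite to that of Ccl2 in both knockdowns and to that of Cx3cl1 in shTet2. In shMbd3 Cx3cl1 did not pass with all libraries. Among the clones Cxcl16 was also opposite to Cx3cl1, at 10.5 and 7.49 RPKM in Py2T LT and 0.898 to 1.57 in the 6 clone libraries (log2 -2.27, -2.50 and -2.56, SE 0.19). Ccl17, a T-cell attractant, was higher in M1, M2 and M3 than in Py2T LT by 2.08, 3.00 and 1.73 (SE 0.29).

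The receptors of most members were near 0 in these cells. Of 22 chemokine receptor genes 20 were under 1 CPM in every M3 shRNA library, including Ccr2, at most 0.0835 CPM, Cx3cr1, at most 0.275, and Cxcr4, at 0 in all 12. The exceptions were Ackr3 and Cxcr3, receptors of Cxcl12 and Cxcl10. Ackr3 was 52.0 and 77.7 CPM in shControl, 44.1 and 44.3 with Tet2 knockdown and 38.0 and 35.6 with Mbd3 knockdown, and with CI994 47.6 and 50.8, 14.2 and 15.6, and 15.6 and 17.3. It fell with CI994 in shTet2 (-1.61 ± 0.15, adjusted p = 0.000281) and shMbd3 (-1.15 ± 0.15, adjusted p = 0.00204), and its change in shControl did not pass (-0.40 ± 0.15, adjusted p = 0.0667) but did without M3 shControl replicate 1 (-0.63, adjusted p = 0.00167). Cxcr3 was lower in shTet2 than in shControl with CI994 (-3.43 ± 0.46, adjusted p = 0.00100), at 0.845 and 2.01 CPM against 17.3 and 21.4. Both receptors were lower in the 3 clones than in Py2T LT, Ackr3 at 54.0 and 52.3 RPKM in Py2T LT and 25.3 to 33.2 in the clones.

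Of 7 proteases that process chemokines 4 were tested in RPKM, where 2 rose and 2 fell in M1, 1 and 1 in M2, and 1 and 2 in M3, where 61.2%, 57.5% and 59.6% of all genes passed. Adam10 and Adam17, which release Cx3cl1, moved in opposite directions in M1 and M3, whereas Cx3cl1 was high in M2 too. Adam17 was 14.7 ± 1.2 RPKM in Py2T LT and 25.9 ± 1.6, 26.4 ± 0.40 and 25.2 ± 0.42 in M1, M2 and M3 (log2 0.75, 0.79 and 0.73, SE 0.10; adjusted p = 0.000302, 0.000224 and 0.000347). Adam10 was 87.7 ± 7.9 RPKM in Py2T LT and lower in M1 and M3, at 56.5 ± 3.2 and 56.2 ± 5.9 (-0.68 and -0.67, SE 0.12; adjusted p = 0.000973 and 0.00113), and 78.6 ± 2.2 in M2 (-0.19 ± 0.12, adjusted p = 0.195). Mmp9, which trims several CXC chemokines, was 2.36 ± 0.022 CPM in shControl and 25.8 ± 4.0 in shMbd3 (3.14 ± 0.16, adjusted p = 5.43e-06), or 3.20 without M3 shControl replicate 1. In the clones Mmp9 was lower, at 0.790 ± 0.069, 0.310 ± 0.020 and 0.427 ± 0.065 RPKM in M1, M2 and M3 against 41.4 ± 11 in Py2T LT (-5.04, -5.70 and -5.50).

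Signals known to induce chemokines were counted for the same comparisons. Of 20 tested NF-kB pathway genes 1 rose and 2 fell in shTet2, 6 rose and 1 fell in shMbd3, and with CI994 5 rose and 1 fell in shControl, 3 and 1 in the shTet2 line and 2 and 0 in the shMbd3 line. The shares of all genes are those given for the other chemokines. Without the library labelled M3 shControl replicate 1 these were 2 and 3, 3 and 2, 4 and 1, 11 and 2, and 6 and 1. The shares of all genes in that fit, here and for the other lists, are those given with the members' counts. They were larger than with all libraries for CI994 in shTet2 and shMbd3. Tnfaip3, an NF-kB target that limits the pathway, was 40.8 ± 6.8 CPM in shControl and rose to 123 ± 9.7 in shTet2 and 138 ± 25 in shMbd3 (1.62 and 1.69, SE 0.24; adjusted p = 0.00165 and 0.00120; 1.85 and 1.92 without that library). Bcl3, a nuclear partner of NF-kB, rose with CI994 in all 3 lines (1.51, 1.20 and 1.08, SE 0.23; adjusted p = 0.00265, 0.00741 and 0.0180), with 1.13 in shControl without that library. In the clones 8 of 20 rose and 4 fell in M1, 6 and 5 in M2, and 7 and 5 in M3, again with 61.2%, 57.5% and 59.6% of all genes passing. Nfkbie was higher, at 1.93 ± 0.34 RPKM in Py2T LT and 22.7 ± 5.3, 11.1 ± 2.7 and 21.0 ± 6.2 in the clones. Tnfaip3 was lower, at 23.5 ± 1.9 RPKM in Py2T LT and 7.67 ± 1.2, 6.90 ± 0.32 and 6.44 ± 0.47 in the clones (-1.61, -1.73 and -1.82).

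Of 16 tested genes of interferon signalling 1 rose and 1 fell in shTet2, 4 rose and 2 fell in shMbd3, and 4, 2 and 0 rose with CI994 in shControl, shTet2 and shMbd3, with 0 falling. Of all tested genes 23.2%, 32.1%, 33.5%, 24.2% and 12.6% passed in these comparisons. Without the library labelled M3 shControl replicate 1 the knockdown counts were 2 rises and 2 falls in shTet2 and 1 rise and 3 falls in shMbd3, and those with CI994 were 4 and 0, 4 and 0, and 2 and 1. Of 14 tested inducing cytokines and receptors 4 rose and 5 fell in shTet2, and 6 rose and 3 fell in shMbd3 (4 and 5, and 5 and 3, without that library), where 23.2% and 32.1% of all genes passed. Il1r1, the receptor of interleukin 1, fell in both, from 85.5 ± 7.8 CPM to 24.6 ± 0.72 and 41.1 ± 0.17 (-1.75 and -1.10, SE 0.13; adjusted p = 3.97e-05 and 0.000461), while its ligand gene Il1a rose from 0.209 ± 0.093 to 1.39 ± 0.50 and 1.69 ± 0.20 CPM (1.43 and 1.59, SE 0.24). These values were, without M3 shControl replicate 1, -1.59 and -0.95 for Il1r1 and 1.58 and 1.75 for Il1a, and all 4 passed. With CI994, Il1a was 7.73 ± 0.43 CPM in shTet2 and 6.12 ± 1.5 in shMbd3 against 0.121 ± 0.11 in shControl. Csf1, the growth factor of macrophages, rose with CI994 from 240.3 ± 23 to 657 ± 82 CPM in shControl (1.41 ± 0.15, adjusted p = 0.000584; 1.38 without that library), and by 1.52 and 0.82 in shTet2 and shMbd3.

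The genes most like Ccl2 across the 12 M3 shRNA libraries, by Pearson's r of log2 values, were Lama4 (0.988), Tnfrsf9 (0.985), Aph1b (0.982), Clec4d (0.973) and Ccl7 (0.969). Those most like Cxcl12 were Mrpl15 (0.971), Heatr1 (0.968), Brms1l (0.964), Hnrnpc (0.964) and Snrpd1 (0.962). The 12 points are 6 groups of 2 and share their libraries, so these values are a description. Lama4, a laminin chain, was like Ccl2 highest in treated shControl and lowest in untreated shTet2, with means of 1.75 CPM in shControl, 0.0945 in shTet2 and 0.478 in shMbd3, and 13.2, 2.06 and 5.06 with CI994.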

How the data were processed

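Total RNA was sequenced after TruSeq Stranded Total RNA preparation, per the labels' protocols. The submitters' processing notes name STAR and mm10 without versions, and the counting method is not given in the sources used here. The deposited values of the 8 Py2T LT and clone libraries were RPKM and those of the 12 M3 shRNA libraries CPM; both were read from the values, and RPKM cannot be told from FPKM. All CPM values (100%, within 0.01 reads) were whole multiples of 1 read, so reads were recovered. The file of 1 library also held the columns of the 7 other RPKM libraries with equal values, and 0 columns were left unmapped.

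The 10 members and the gene lists were chosen with earlier results of these data known. Each set had 1 limma fit (trend, robust) with group as the only term, on log2(value / TMM factor + 0.5), keeping genes that reached 1 RPKM (or 0.5 CPM) in 2 libraries or more. edgeR and DESeq2 were run on recovered reads as alternatives. P-values were adjusted by Benjamini-Hochberg over all tested genes, with a threshold of 0.05. With 2 replicates per group they measure the spread between these libraries. Members were named where they passed, and in most comparisons also where they did not. From each other list up to 2 rises and 2 falls were named that passed with a mean of at least 1. Ccl2, Ccl7 and Ccl9 were not tested for CI994 or its interactions and are described between CI994 groups. Their tests between untreated M3 shRNA groups use libraries on which they were picked. Ccl7 in M3, Cxcl10 in shTet2 with CI994 and Ccl8 in shControl with CI994, which passed the filter through those groups, are described too. The lists were other chemokines, chemokine receptors, processing proteases, NF-kB pathway, interferon signalling, inducing cytokines and receptors, and mesenchymal, epithelial, leukocyte and endothelial markers. The fit was also run on simulated data with the same dispersion for every gene and no GC trend. That run cannot show how the fit handles a library such as M3 shControl replicate 1. Levels in RPKM and CPM were not compared. The tools were R 4.3.3, limma 3.58.1, edgeR 4.0.16, DESeq2 1.42.0 and Python 3.11.15.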

Additional observations from a re-analysis of the deposited data

How the results depend on the processing

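The alternatives were RLE size factors, library size only, no filter, pseudocounts of 0.1 and 1, a replicate block, fitting no other groups than those compared, GC trend removed (alone and with the block), edgeR and DESeq2 on recovered reads, and leaving out each library. The values counted next include those that the selection or the filter limits, and 2 of the 10 interaction values of single members. No count without them is given, so the counts are not a measure of how stable the tested values alone are. Over 45 values of single members past the threshold, 801 of 857 alternatives kept the call, 56 lost it and 0 reversed it. The losses fell on 18 values, and 26 of 46 tested values that had not passed did so in some alternative. Replicate numbers were not a term in the fits behind the results above. The replicate differences of 2 groups correlated at 0.0954 to 0.523 in CPM, positive in all 15 pairs of groups. CPM libraries with the same replicate number thus shared some of their difference, which those fits leave in the spread. In RPKM the correlations ran from -0.122 to 0.128. With the replicate block the members called were 4 in M2 against M1, 4 for CI994 in shControl, 5 for CI994 in shTet2 and 5 in shTet2 against shControl with CI994; the other counts stayed within 1.5 times. With the GC trend removed they were 5 in shTet2, 4 in shMbd3 and 5 in shMbd3 with CI994. With the GC trend removed and the block they were 6 in shTet2, 5 in shMbd3, 4, 5 and 4 for CI994 in shControl, shTet2 and shMbd3, and 5 in shTet2 and 5 in shMbd3 with CI994. With only the groups compared they were 1 in M3 against M1, 1 in shMbd3, 0, 5 and 4 for CI994 in shControl, shTet2 and shMbd3, and 6 in shTet2 and 5 in shMbd3 with CI994. Without a filter the shTet2 interaction had 1, Ccl20, at 0.61 (9 and 7 reads in its highest group). Leaving out each library in turn gave 2 to 6 members in M2 against Py2T LT, 0 to 3 in M2 against M1, 1 to 3 in M3 against M1, 2 to 5 in shTet2, 2 to 4 in shMbd3, 2 to 4 for CI994 in shControl, 1 to 5 in shTet2 and 2 to 4 in shMbd3, 2 to 5 in shTet2 and 2 to 5 in shMbd3 with CI994, and 0 to 1 for the shMbd3 interaction. Values other than interactions that had not passed and turned their sign were these, as the lowest and highest value when each library was left out in turn. Cxcl1 ran from -0.87 to 0.59 in M3 against Py2T LT and from -1.32 to 0.12 in M3 against M1. In M3 against M1 Cxcl5 ran from -0.61 to 0.050 and Cx3cl1 from -0.020 to 0.035 (-0.021 by library size only). Ccl9 in shTet2 ran from -0.40 to 0.82. In shMbd3 Cxcl1 ran from -0.56 to 0.33, Cxcl5 from -0.38 to 0.20, Cxcl10 from -0.074 to 0.060 and Cxcl12 from -0.40 to 0.035, and with the GC trend removed, with or without the block, Cxcl1 was 0.12, Cxcl5 0.33 and Cxcl10 0.10. In shTet2 against shControl with CI994 Ccl9 ran from -0.091 to 0.37 and Cxcl5 from -0.0079 to 0.34. The causes were not tested. The counts of members above stand without the share of all genes passing in each alternative. That share can move too, so these counts are not a result about the chemokines. The RPKM libraries give no depth, and in CPM Ccl5, Ccl20 and Cxcl10 rest on at most 20 reads per library.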
